A study of Mus musculus with 24 samples.

Results

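Axon guidance ligands and receptors are the secreted and membrane-bound cues that steer growing axons, together with the proteins on the axon that read them. Semaphorins signal through plexins, with neuropilins as co-receptors for most secreted class 3 semaphorins. Ephrins bind Eph receptor tyrosine kinases, netrins bind Dcc and the Unc5 proteins, and Slits bind Robo receptors. In the rodent hippocampus these systems help to place the entorhinal, mossy fibre and commissural projections while the circuit is being built around birth. The genes were taken by symbol from the array annotation. They were every semaphorin of classes 3 to 7, plexin, neuropilin, Slit, Robo, netrin, netrin-G, Unc5 protein, ephrin and Eph receptor, and Dcc. This gave 71 genes carried by 95 probes, of 36163 gene names and 55681 probes in all. Of the 71 genes, 50 had 1 probe and 21 had 2 or 3.

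Hippocampal RNA came from C57BL/6 male pups killed on postnatal day 9 (P9), with 1 animal per array and 5 arrays in each of 3 groups. Con pups were untreated and stayed with the dam. MS2 pups received morphine at 2 mg/kg and MS5 pups morphine at 5 mg/kg from P5, and in both groups the drug was combined with separation from the dam and brief apnea under nitrogen. Each contrast with Con therefore spanned morphine and stress, which cannot be told apart here, while MS5 against MS2 compared the 2 doses under the same stress. Levels below are log2 normalized intensities of a probe, differences are differences between group means of these log2 levels, and a probe was called when the difference exceeded 1.5-fold with an unadjusted limma p under 0.05. Where an adjusted p is printed, it is limma's p after Benjamini-Hochberg adjustment across the 55681 probes.

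The 15 arrays lay on 2 slides, with 3 Con, 3 MS2 and 2 MS5 arrays on slide 1 and 2 Con, 2 MS2 and 3 MS5 arrays on slide 2. The median spot signal ran from 120.9 to 153.6 except on the array of MS2 replicate 5, where it was 58.15. Of the 95 probes, 92 were well above background on all 15 arrays and the remaining 3 were so on 9 to 14 arrays, with 0 saturated spots. MS2 replicate 4 stood apart from the other arrays. Its 17 probes for genes of hippocampal principal neurons averaged -2.0 log2 units relative to the control mean, against -0.41 to 0.11 on the other 14 arrays, and its 23 probes for genes of thalamus and hypothalamus averaged 2.20 above it, against -0.19 to 0.97. MS5 replicate 9 went against its label as male, since an Xist probe read 11.34 there against 5.89 to 6.08 elsewhere and the Y-linked gene Ddx3y read 6.24 against 11.01 to 11.45. Counts of called probes are therefore given with and without these arrays. Values of single genes are from all arrays unless a left-out array is named. Every gene of the marker lists used here had a probe well above background on some array. In pieces of tissue like these, fewer cells of a type and less RNA per cell cannot be told apart.

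Over the whole set of axon guidance probes, differences between groups centred near 0. The median difference over the 95 probes was 0.00 in MS2 against Con, -0.02 in MS5 against Con and 0.03 in MS5 against MS2, where the median over all probes was 0.00 in each contrast. By the call rule, 0 of the 95 probes were called in MS2 against Con, where 0.0233% of all probes were called. In MS5 against Con 2 probes were called, Sema3b lower and Sema3a higher, where 0.228% of all probes were called (0.0449% higher and 0.183% lower). In MS5 against MS2 only Sema3b was called, lower in MS5, where 0.129% of all probes were called and 0.111% were called lower. At an unadjusted limma p under 0.05 alone, 3, 5 and 2 of the 95 probes passed in these contrasts, or 3.16%, 5.26% and 2.11%, where 4.17%, 3.90% and 3.97% of all probes passed. These shares were near the background. With limma's adjusted p, 0 of the 95 probes and 0 of all probes passed 0.05, and the smallest adjusted p among the 95 probes was 0.97 in MS2 against Con and 1.00 in both other contrasts.

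**Figure D1:**
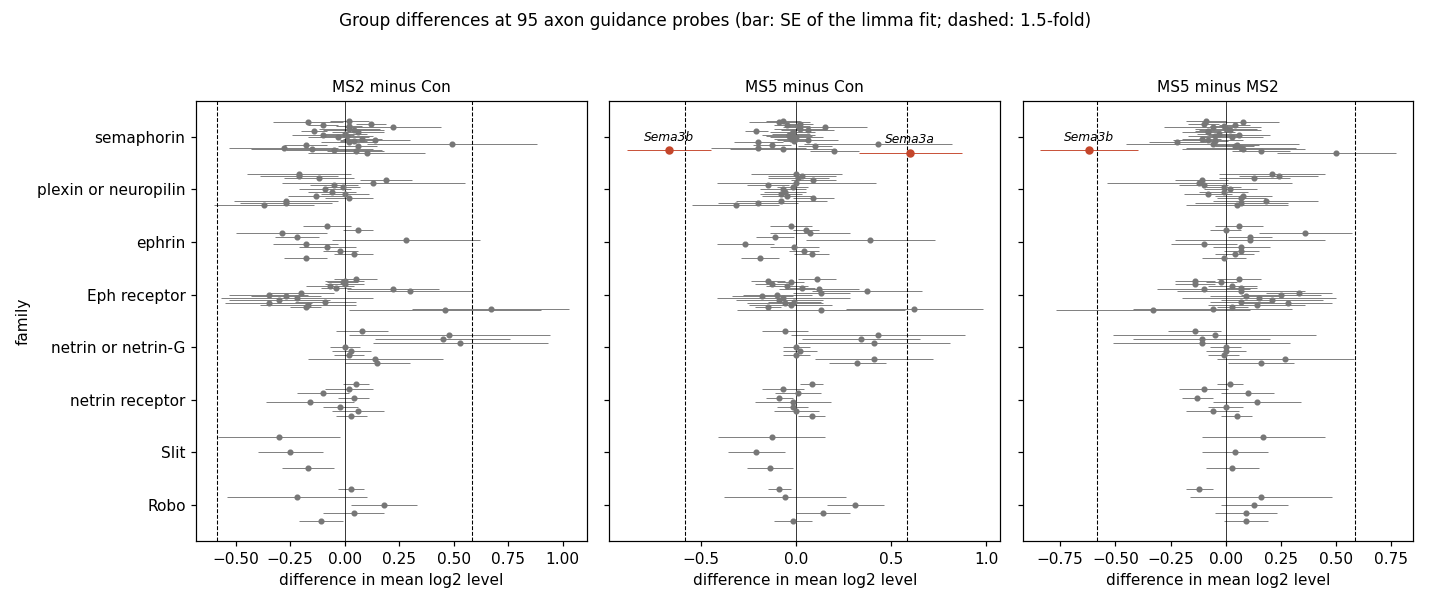
Difference between group means (log2, x axis) at each of the 95 probes, by family, for the 3 contrasts, with bars for the SE of the limma fit and dashed lines at 1.5-fold. Red points are called probes: none in MS2 minus Con, Sema3b and Sema3a in MS5 minus Con, and Sema3b in MS5 minus MS2.

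Sema3a encodes a secreted semaphorin that repels axons through neuropilin and plexin receptors, and it was measured by 2 probes on chromosome 5 (mm9, plus strand). The 60-base probe A_55_P2054013 is shown because it allows the measured stretch of this transcript to be seen. It lay at chr5:13473453-13473512, and its position counted from the start of the transcript was 1036. Read 5′ to 3′ it was free of stop codons in 2 of its 3 forward frames. The second probe, A_55_P2014249, lay further towards the 3′ end at chr5:13602462-13602521, at position 5826 of the same transcript.

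Sema3a probe A_55_P2054013: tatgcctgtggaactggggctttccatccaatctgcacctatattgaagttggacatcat

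At the called probe A_55_P2014249 the Sema3a level was 8.98, 8.70, 8.91, 8.98 and 9.80 in Con replicates 15 to 19. In MS2 it was 9.01, 8.79, 9.01, 10.19 and 8.89 in replicates 1, 3, 4, 5 and 7, and in MS5 it was 10.03, 9.78, 9.49, 9.08 and 9.98 in replicates 8, 9, 12, 13 and 14. Of the 5 control arrays 4 lay below 9 and 4 of the 5 MS5 arrays at 9.49 or above, but Con replicate 19 and MS2 replicate 5 lay as high as the MS5 arrays, so the groups overlapped. The mean was 9.08 ± 0.42 (SD, n = 5) in Con, 9.18 ± 0.57 in MS2 and 9.67 ± 0.39 in MS5. The MS5 difference from Con was 0.60 (SE 0.27), with an unadjusted limma p of 0.0433, an adjusted p of 1.00 and an exact permutation p of 0.0556 (two-sided). At the other probe, A_55_P2054013, the difference was 0.20 (SE 0.13, exact permutation p = 0.127), and its lowest and highest levels were 6.79 and 7.19 in Con, 6.75 and 7.30 in MS2, and 6.80 and 7.32 in MS5. Both Sema3a probes were highest on the same arrays of each group, namely Con replicate 19, MS2 replicate 5 and MS5 replicates 8 and 14.

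The study had reported Sema3a as higher in MS5 from the same arrays, so the call is not separate evidence. The Sema3a call was close to its threshold. It was lost when any one of Con replicates 15 to 18, MS2 replicate 1 or MS5 replicates 8, 9 or 14 was left out, where the difference was 0.51 to 0.60. Without Con replicate 19 the difference was 0.78. Within slide 1 the difference was 0.60 and within slide 2 it was 0.50. Against MS2, Sema3a in MS5 differed by 0.50 (exact permutation p = 0.151), which became 0.75 without MS2 replicate 5. Relative to the control mean, the 10 probes for meningeal genes averaged 0.11, 0.44, 0.16, 0.09 and -0.80 on Con replicates 15 to 19. They averaged 0.40, 0.26, -0.19, -0.24 and -0.06 on MS2 replicates 1, 3, 4, 5 and 7. On MS5 replicates 8, 9, 12, 13 and 14 they averaged -0.65, 0.19, -0.10, -0.03 and -0.53. The part of these genes in the Sema3a result was not tested.

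Sema3b encodes another secreted class 3 semaphorin, and its probe lay at chr9:107500686-107500745 (mm9, minus strand). Its level was 9.93, 10.52, 10.47, 10.22 and 10.28 in Con replicates 15 to 19. In MS2 replicates 1, 3, 4, 5 and 7 it was 10.35, 10.60, 10.06, 10.14 and 10.01, and in MS5 replicates 8, 9, 12, 13 and 14 it was 10.08, 9.28, 10.09, 9.84 and 8.77. The 2 lowest values were MS5 replicates 9 and 14, while MS5 replicates 8 and 12 lay above the lowest control. Sema3b was 0.67 log2 units lower in MS5 than in Con (difference -0.67, SE 0.22, unadjusted limma p = 0.00889, adjusted p = 1.00, exact permutation p = 0.0317), and its difference from MS2 was -0.62 (unadjusted limma p = 0.0142, exact permutation p = 0.0556). In MS2 the difference from Con was -0.05. The call against MS2 was lost without MS2 replicate 3 (-0.52), MS5 replicate 9 (-0.53) or MS5 replicate 14 (-0.41), and without MS2 replicate 3 0.0593% of all probes were called in that contrast.

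The Sema3b result rested mainly on slide 2, which carried both low arrays: the MS5 difference from Con was -1.02 there and -0.24 within slide 1. Without MS5 replicate 14 it was -0.46 and fell short of 1.5-fold. MS5 replicates 9 and 14 were also the arrays lowest in genes of choroid plexus, the tissue that makes cerebrospinal fluid and lies against the hippocampus. The 21 choroid plexus probes averaged -1.90 and -2.67 on these arrays relative to the control mean, -0.78, -0.29 and -0.10 on MS5 replicates 13, 8 and 12, -0.47 to 0.40 on Con arrays and -0.43 to 0.16 on MS2 arrays. All 21 were lower in MS5 than in Con and 17 were called, where 0.183% of all probes were called lower. Without MS2 replicate 4 and MS5 replicate 9 together 20 were lower and 9 were called, where 0.298% of all probes were called. The study had reported several genes of this list as lower in MS5 from the same arrays, Aqp1, Calml4, Cldn2, Folr1 and Kl among them. These counts were thus partly fixed by the choice of list. Within Con, within MS2 and within MS5 Sema3b and the list mean had the same order. Con replicates 15, 18, 19, 17 and 16, in rising order of that list at -0.47, -0.26, -0.03, 0.36 and 0.40, had Sema3b at 9.93, 10.22, 10.28, 10.47 and 10.52. MS2 replicates 7, 4, 5, 1 and 3, at -0.43, -0.36, -0.33, 0.10 and 0.16, had Sema3b at 10.01, 10.06, 10.14, 10.35 and 10.60. MS5 replicates 14, 9, 13, 8 and 12, at -2.67, -1.90, -0.78, -0.29 and -0.10, had Sema3b at 8.77, 9.28, 9.84, 10.08 and 10.09. The part of choroid plexus in the Sema3b result was not tested.

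**Figure D2:**
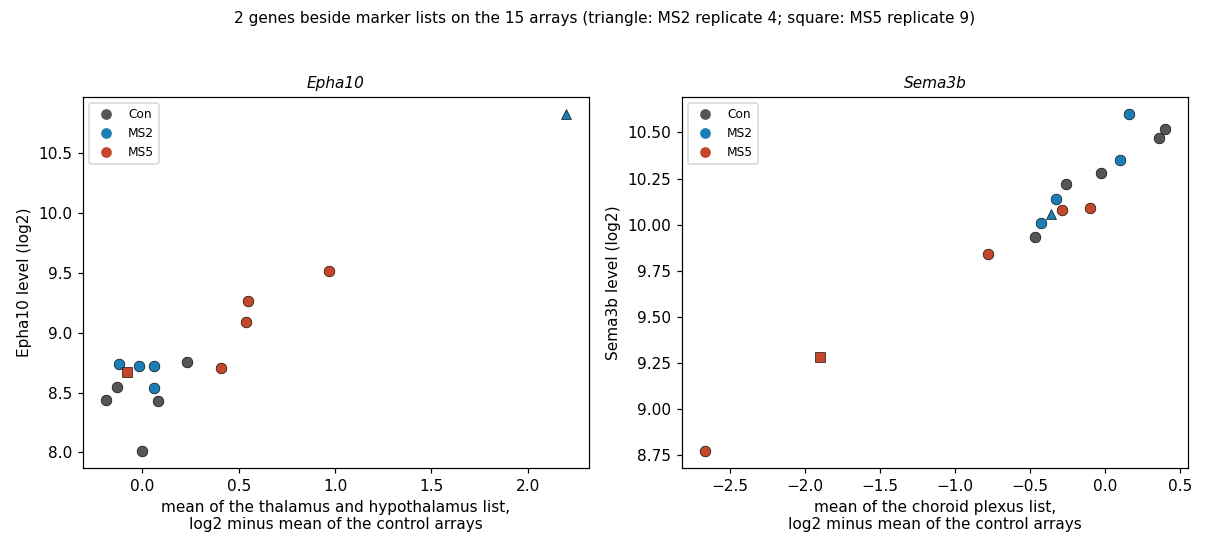
Level (log2, y axis) of Epha10 beside the mean of the thalamus and hypothalamus list, and of Sema3b beside the mean of the choroid plexus list (x axes, log2 relative to the control mean), 1 point per array. MS2 replicate 4 is alone at the upper right for Epha10 (10.83 at 2.20), and MS5 replicates 9 and 14 are at the lower left for Sema3b (9.28 at -1.90 and 8.77 at -2.67).

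Sema3f, a class 3 semaphorin whose probe lay on the same strand of chromosome 9 at chr9:107583833-107583892, near that of Sema3b, was not called in any contrast with all arrays. The level of Sema3f was 10.26 to 11.37 in Con, 10.44 to 12.78 in MS2 and 10.61 to 11.67 in MS5, with MS2 replicate 4 highest. Its difference from Con was 0.43 in MS5 and 0.49 in MS2, and the latter was 0.08 from group means of 10.71 and 10.64 once MS2 replicate 4 was left out.

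Sema5a encodes a transmembrane semaphorin with thrombospondin repeats, and its probe lay at chr15:32626025-32626084 (mm9, plus strand). It was 12.98, 13.04, 13.17, 12.97 and 13.11 in Con replicates 15 to 19, and 12.84, 12.65, 12.86, 12.89 and 12.96 in MS5 replicates 8, 9, 12, 13 and 14. The groups did not overlap, but the highest MS5 value (12.96) lay just under the lowest control value (12.97). The difference was -0.21 (SE 0.06, unadjusted limma p = 0.00402, adjusted p = 1.00), with an exact permutation p of 0.00794, the smallest that 5 arrays against 5 allow. It was under 1.5-fold and was not called. Without MS2 replicate 4 and MS5 replicate 9 together the difference was -0.17 (exact permutation p = 0.0159). In MS2 the Sema5a difference from Con was -0.14 with all arrays (exact permutation p = 0.0635) and -0.11 (exact permutation p = 0.119) without MS2 replicate 4.

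Among the other semaphorins the differences were small. Over the 26 probes of the 20 semaphorin genes the median difference was 0.02 in MS2 and -0.03 in MS5 against Con, with extremes of -0.28 and 0.49 in MS2 and -0.67 and 0.60 in MS5. Sema3g, a class 3 semaphorin, was 9.32 ± 0.20 in Con, 9.35 ± 0.24 in MS2 and 9.12 ± 0.21 in MS5 (SD, n = 5). Sema6d, a transmembrane semaphorin that binds plexin A1, was among the 4 genes with the smallest p for a higher level in MS2 and differed from Con by 0.12 (exact permutation p = 0.175) at 1 probe and by -0.17 at the other. The first of these was 0.06 without MS2 replicate 4 (exact permutation p = 0.341). Sema3e, which signals through plexin D1, had a narrow control range of 10.36 to 10.47 and an MS5 range of 10.22 to 10.37. It was picked after its values were seen, and its MS5 difference of -0.13 had an exact permutation p of 0.0159, with adjusted limma p of 1.00 with all arrays and 0.511 without MS2 replicate 4.

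The semaphorin receptors gave no called probe in any contrast with all arrays. Over 15 probes of 11 plexins and neuropilins, MS5 minus Con ran from -0.32 at Nrp1, the neuropilin that Sema3a binds, to 0.09. Nrp1 was 10.69 ± 0.32 in Con, 10.33 ± 0.56 in MS2 and 10.37 ± 0.24 in MS5. Plxnc1, the receptor of Sema7a, had the largest MS2 difference in the upward direction among these receptors at 0.19 (exact permutation p = 0.175), and its second probe differed by -0.12. Plxnb3, a plexin found in oligodendrocytes, varied widely within every group. It ran from 9.65 to 11.36 in Con, 10.12 to 11.29 in MS2 and 9.00 to 11.45 in MS5, and its within-group SD was 0.73. The mean of the 15 oligodendrocyte probes was highest on Con replicate 19 (0.94), MS2 replicate 4 (0.99) and MS5 replicate 8 (1.17), the arrays highest in Plxnb3 within each group, and its part in the Plxnb3 values was not tested.

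**Figure D3:**
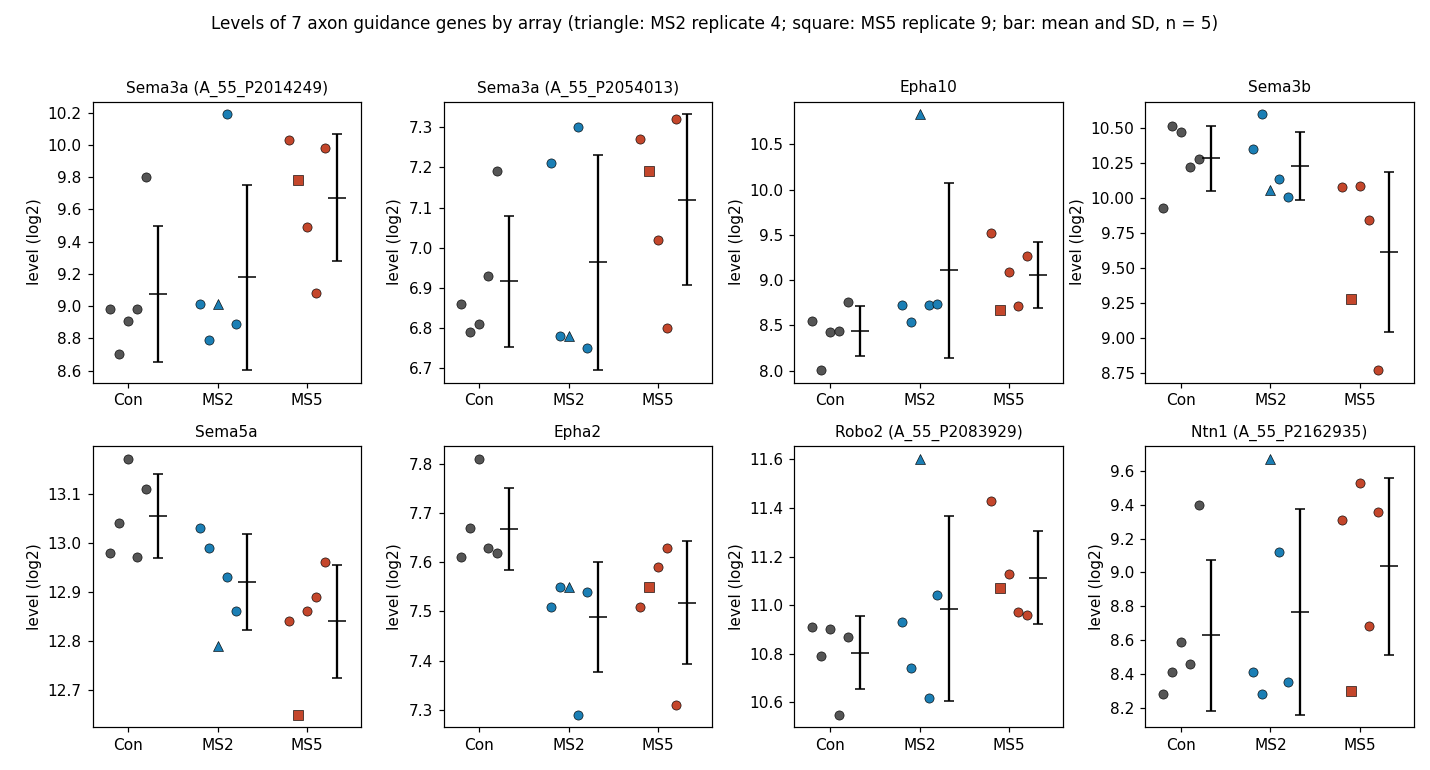
Levels (log2, y axis) of 7 genes at 8 probes on each array, by group (x axis), with mean and SD of 5 arrays. The triangle is MS2 replicate 4, highest at Epha10 (10.83), Robo2 (11.60) and Ntn1 (9.67), and the square is MS5 replicate 9, lowest at Sema5a (12.65).

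Epha10 encodes an Eph receptor that lacks kinase activity, and its probe lay at chr4:124563692-124563751 (mm9, plus strand). Its level was 8.55, 8.01, 8.43, 8.44 and 8.76 in Con replicates 15 to 19. In MS2 replicates 1, 3, 4, 5 and 7 it was 8.72, 8.54, 10.83, 8.72 and 8.74, and in MS5 replicates 8, 9, 12, 13 and 14 it was 9.52, 8.67, 9.09, 8.71 and 9.27. Of the MS5 arrays 3 exceeded every control and 2 did not, and MS2 replicate 4 was far above all other arrays. With all arrays the difference from Con was 0.67 (SE 0.36, exact permutation p = 0.0714) in MS2 and 0.62 (SE 0.36, exact permutation p = 0.0238) in MS5, with adjusted p of 0.97 and 1.00, so neither was called although both exceeded 1.5-fold. The study had listed Epha10 as higher in MS5 from the same arrays.

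The Epha10 calls depended on which MS2 arrays were in the fit. Without MS2 replicate 4 the MS2 difference from Con was 0.24 (exact permutation p = 0.135), while the SE of the MS5 difference was 0.16 and that difference passed the call rule, with 0.280% of all probes called in that fit. The exact permutation test of MS5 against Con does not involve the MS2 arrays. With only the MS5 and Con arrays in the fit, the MS5 difference of 0.62 had an unadjusted limma p of 0.00539. It was called there, as were 140 of all 55681 probes. Without MS2 replicate 3 the MS2 difference was 0.82 and Epha10 was called in MS2 against Con, where 0.0611% of all probes were. Without MS2 replicate 4 the difference between MS5 and MS2 turned from -0.06 to 0.37 (exact permutation p = 0.127). The MS5 difference was 0.65 within slide 1 and 0.63 within slide 2.

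The mean of the thalamus and hypothalamus list was 2.20 on MS2 replicate 4, the array highest in Epha10, relative to the control mean. On MS5 replicates 8, 9, 12, 13 and 14 it was 0.97, -0.08, 0.54, 0.41 and 0.55, and its order was that of Epha10. On Con replicates 15 to 19 it was -0.13, 0.00, 0.08, -0.19 and 0.23. On MS2 replicates 1, 3, 5 and 7 it was -0.02, 0.06, 0.06 and -0.12. Within Con and within these other MS2 arrays its order was not that of Epha10. Of the 23 probes of the list 16 were higher in MS5 than in Con and 3 were called, where 0.0449% of all probes were called higher. Without MS2 replicate 4 there were 6 such calls, where 0.088% of all probes were called higher. The study had reported Avp and Trh of this list as higher in MS5 from the same arrays. These counts too were partly fixed by the choice of list. The part of the list in the Epha10 result was not tested.

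The remaining Eph receptors and the ephrins showed no called probe with all arrays. Epha2, a receptor of ephrin-A ligands with its probe at chr4:140885139-140885198, was 7.61 to 7.81 in Con, 7.29 to 7.55 in MS2 and 7.31 to 7.63 in MS5. All MS2 arrays lay below all controls, and the difference was -0.18 (SE 0.07, unadjusted limma p = 0.0164, adjusted p = 0.97, exact permutation p = 0.00794). Epha2 in MS5 differed from Con by -0.15 (exact permutation p = 0.0238). Leaving out MS2 replicate 4 left the MS2 difference at -0.20 (exact permutation p = 0.00794). Groups without overlap were thus seen at 1 of the 95 probes in MS2 against Con, at 2 in MS5 against Con (Sema5a and a Robo2 probe) and at 0 in MS5 against MS2, where 0.702%, 0.828% and 0.621% of all probes did.

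Among the ephrins, Efnb1, a transmembrane ephrin with its gene on the X chromosome, was 12.04 ± 0.18 in Con, 11.82 ± 0.15 in MS2 and 11.92 ± 0.16 in MS5 (SD, n = 5). Its MS2 difference from Con was -0.22 (exact permutation p = 0.0873, adjusted p = 0.97). Efna1, a membrane-anchored ligand, differed from Con by -0.18 in MS2 and -0.19 in MS5 (exact permutation p = 0.0952 and 0.103). Over the 10 ephrin probes the median difference from Con was -0.08 in MS2 and 0.02 in MS5.

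For 3 of the genes with the smallest p in MS5 against MS2, 1 array set most of the difference. Epha7, a receptor of ephrin-A ligands, differed between MS5 and MS2 by 0.33 at 1 of its 3 probes (exact permutation p = 0.0476), and its other probes differed by 0.09 and 0.25. MS2 replicate 4 read 10.06 at the first of these probes, where the other MS2 arrays read 10.66 to 11.09 and the MS5 arrays 10.90 to 11.17. Without that array the difference was 0.16. Epha4, a receptor of both ephrin classes, and Efnb2, a transmembrane ephrin, differed by 0.28 and 0.36 with all arrays and by 0.04 and 0.14 without it. In the opposite direction Robo4, Unc5b and Sema3g differed between MS5 and MS2 by -0.12, -0.13 and -0.22, with exact permutation p of 0.119, 0.111 and 0.167.

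Among netrins and netrin-Gs the positive differences in MS5 lay at Ntn1 and Ntng1, none of them called with all arrays. The median over the 9 probes of this family was 0.32 in MS5, 0.14 in MS2 and 0.04 in MS2 without replicate 4, but 5 of the 9 probes belong to these genes. The other members, Ntn3, Ntn4, Ntn5 and Ntng2, differed from Con in MS5 by 0.00, 0.02, 0.00 and -0.06. Ntn1 encodes netrin-1, a secreted cue that attracts or repels axons depending on the receptor, and both its probes had positive differences in MS5, of 0.32 (exact permutation p = 0.103) and 0.41 (exact permutation p = 0.222). At the second probe, A_55_P2162935, the level was 8.28, 8.41, 8.59, 8.46 and 9.40 in Con replicates 15 to 19, and 9.31, 8.30, 9.53, 8.68 and 9.36 in MS5 replicates 8, 9, 12, 13 and 14. MS5 replicates 8, 12 and 14 lay near Con replicate 19, replicate 13 lay just above the other 4 controls and replicate 9 lay among them. Without MS2 replicate 4 and MS5 replicate 9 together the difference at this probe was 0.60 and it was called, with 0.298% of all probes called in that fit.

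Ntng1 encodes netrin-G1, a membrane-anchored protein of thalamic and other projecting axons that binds Lrrc4c and not the classical netrin receptors. Its 3 probes differed from Con by 0.34 to 0.43 in MS5 and by 0.45 to 0.53 in MS2, with exact permutation p from 0.111 to 0.643. The MS2 differences were 0.07, 0.09 and -0.03 once that group's replicate 4 was left out. MS2 replicate 4 was highest at all 3, at 14.90, 8.77 and 13.73, where the other 14 arrays ran from 12.03 to 13.37, from 6.61 to 7.59 and from 10.41 to 12.31. Among MS5 arrays at the probe A_55_P1989341 the level was 12.31, 11.83, 10.41, 12.15 and 11.50, so replicate 12 was below every control while 4 were above.

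The netrin receptors differed little between groups. Over 8 probes of Dcc and Unc5a to Unc5d, MS5 minus Con ran from -0.09 to 0.08 and MS2 minus Con from -0.16 to 0.06. The 3 probes named for Dcc did not describe 1 locus: 2 were annotated to chromosome 18 and the third, with levels near 17.22, to chromosome 7, so that probe is uncertain as a measure of Dcc.

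Slit probes had negative differences in both treated groups, and Robo probes had differences of either sign. Slit1, Slit2 and Slit3, secreted repellents, differed from Con by -0.14, -0.21 and -0.13 in MS5 and by -0.17, -0.25 and -0.30 in MS2, and none of the 3 was called. Without MS2 replicate 4 the median over the 3 Slit probes in MS2 was -0.02. Robo2, a Slit receptor, was higher in MS5 than in every control at 1 of its 2 probes (A_55_P2083929, chr16:73897261-73897318, minus strand). The level there was 10.91, 10.79, 10.90, 10.55 and 10.87 in Con replicates 15 to 19, and 11.43, 11.07, 11.13, 10.97 and 10.96 in MS5 replicates 8, 9, 12, 13 and 14. MS2 replicates 1, 3, 4, 5 and 7 read 10.93, 10.74, 11.60, 10.62 and 11.04 at this probe. The MS5 difference from Con was 0.31 (SE 0.15, adjusted p = 1.00, exact permutation p = 0.00794), and its unadjusted limma p was not under 0.05. At the other Robo2 probe the difference was 0.14 (exact permutation p = 0.238), where the groups overlapped.

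Leaving out MS2 replicate 4 also changed the calls in MS5 against Con, since all groups share one estimate of spread in the fit. In MS5 against Con 3 of 95 probes (3.16%) were then called, Epha10 and Sema3a higher and Sema3b lower, where 0.088% of all probes were called higher and 0.192% lower. Of the 95 probes 11 (11.6%) had an unadjusted limma p under 0.05, where 5.92% of all probes did. The smallest adjusted p among the 95 probes was 0.452. In MS2 against Con 0 were called and 1 had an unadjusted limma p under 0.05, where 0.0162% and 4.00% of all probes did. In MS5 against MS2 1 was called, Sema3b, and 7 had such a p, where 0.187% and 6.78% of all probes did. With MS5 replicate 9 left out as well, 0, 3 and 1 probes were called in the 3 contrasts, where 0.0126%, 0.298% and 0.221% of all probes were, and 1, 14 and 10 had an unadjusted limma p under 0.05, where 3.88%, 5.71% and 5.84% did. The 3 in MS5 against Con were then Epha10 (0.71), an Ntn1 probe (0.60) and Sema3b (-0.59), and Sema3a at 0.57 was not among them. The 11 probes in MS5 against Con without MS2 replicate 4 included Efna5 (0.39), Efna4 (-0.27), Sema3e (-0.13) and Slit1 (-0.14), named here after their values were seen.

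**Figure D4:**
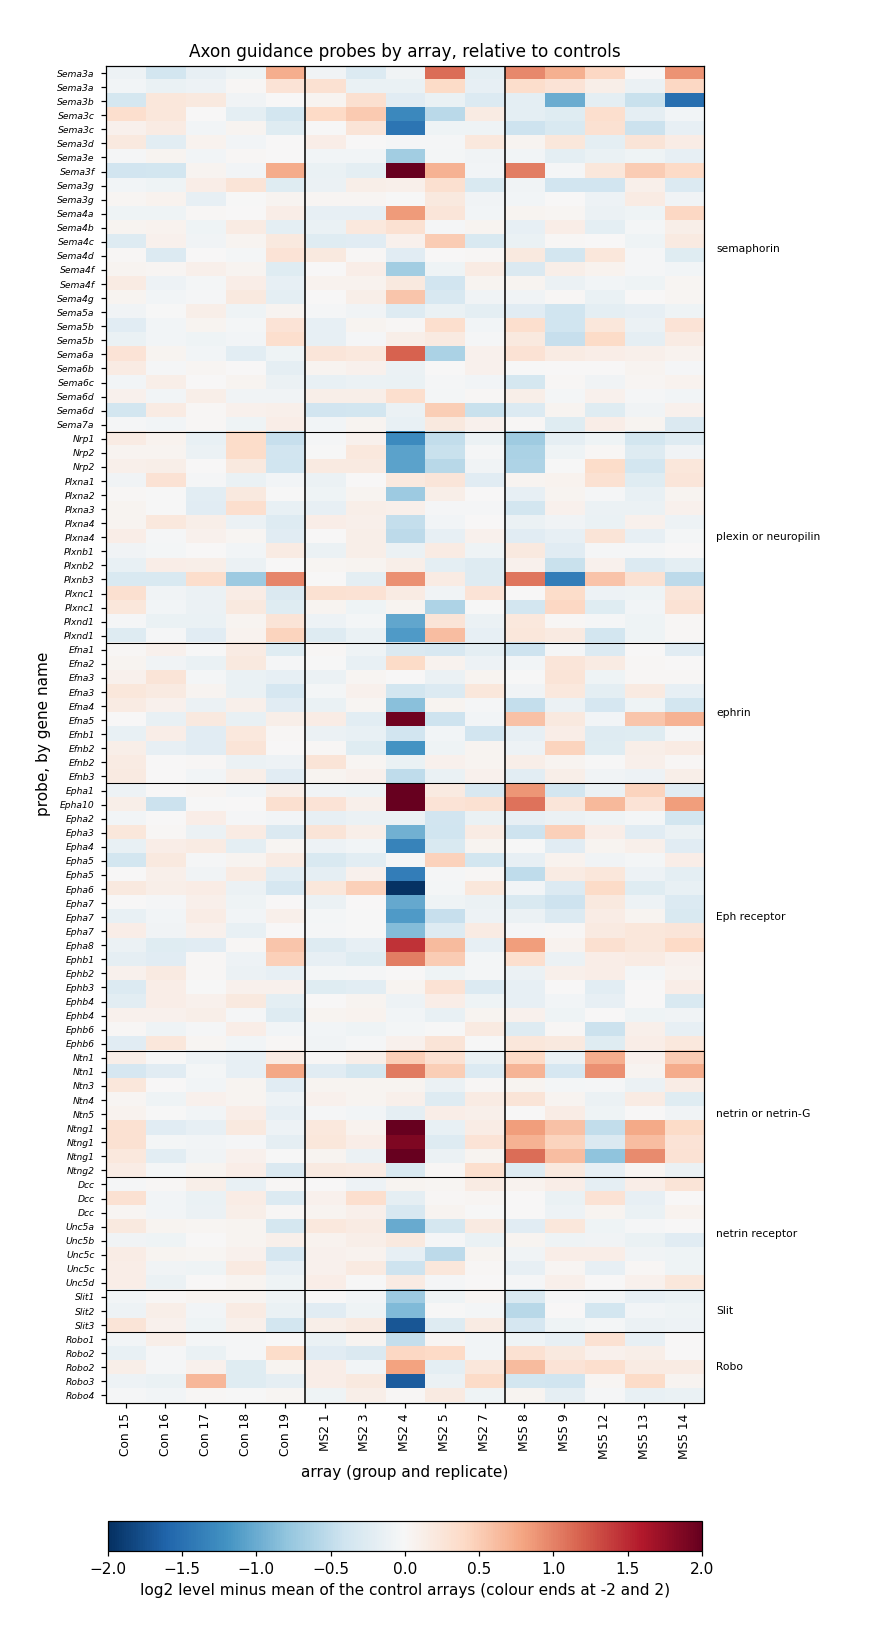
Level of each of the 95 probes (rows, by family and gene) on each array (columns), as log2 difference from the mean of the 5 control arrays. The column of MS2 replicate 4 holds the largest differences in both directions, from 2.59 at Epha1 to -1.97 at Epha6. The colour scale is cut at its ends, so the largest upward differences share 1 colour.

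MS2 replicate 4 was the highest or the lowest of 15 arrays at 54 of the 95 probes (56.8%), highest at 20 and lowest at 34, where it was so at 30.3% of all probes and at 38.1% of those well above background on every array. At 23 probes it lay over 1 log2 unit from the mean of the other 14 arrays. The largest deviations upward were Epha1 (9.68 against 6.72 to 7.97), 2 Ntng1 probes, Epha10, Sema3f and Efna5 (12.77 against 10.42 to 11.52). Those downward were Epha6 (8.96 against 10.60 to 11.40), Robo3 (9.00 against 10.26 to 11.32), Slit3 (8.45 against 9.80 to 10.42), both Sema3c probes and an Epha5 probe. Neuropilins and plexins were lowest at 8 of 15 probes on this array and highest at 0, and all 3 Slit probes were lowest. These deviations were chosen after their values were seen and concern 1 animal.

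**Figure D5:**
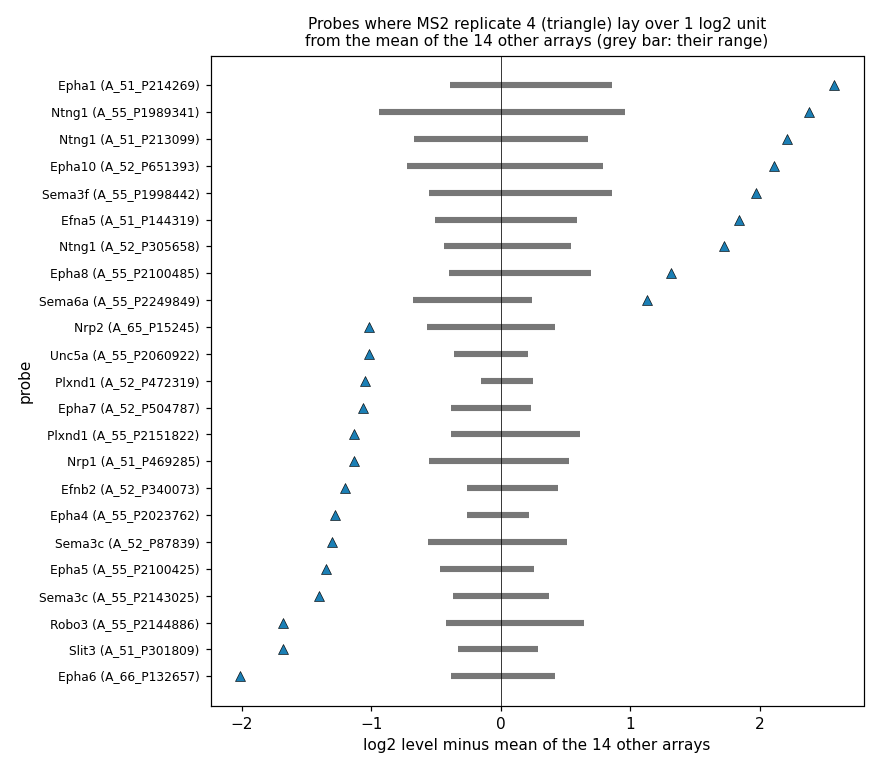
The 23 probes at which MS2 replicate 4 (triangles) lay over 1 log2 unit from the mean of the 14 other arrays, whose range is the grey bar (x axis, log2 difference from that mean). Triangles run from 2.57 at Epha1 to -2.01 at Epha6, each outside the range of the other arrays.

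Axon guidance probes also differed more between animals of 1 group than a typical probe did. Their median within-group SD was 0.22, against 0.135 for the 36283 probes well above background on all arrays, and 0.177 against 0.122 without MS2 replicate 4. With all arrays Ntng1, Epha1 and Plxnb3 had the largest SDs, 0.73 to 0.80. With MS2 replicate 4 left out, the SD was 0.47 at that Ntng1 probe and 0.34 at Epha1, and the largest were those of Plxnb3 (0.72) and Sema3a (0.49). Robo4, an endothelial Robo, and Sema6b had the smallest with all arrays, 0.09 each.

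The slides gave different pictures of MS5. Within slide 1, with MS5 replicates 8 and 13 against 3 Con arrays, 10 of 95 probes were called, where 0.702% of all probes were. Of these 8 were higher (2 Ntng1 probes, Epha1, Plxnb3, Epha10, Sema3f, Sema3a and Epha8) and 2 lower (Nrp1 and an Nrp2 probe). The Ntng1 probe A_55_P1989341 had an adjusted limma p of 0.0212 there, with a difference of 0.95. In that fit 33 of all 55681 probes had an adjusted limma p under 0.05. Within slide 2, with 3 MS5 arrays against 2 Con arrays, 1 probe was called, Sema3b, where 0.343% of all probes were, and the difference at the same Ntng1 probe was 0.15. MS2 against Con gave 0 called probes within slide 1 and 7 within slide 2, which held MS2 replicate 4, where 0.0162% and 0.526% of all probes were called. MS5 against MS2 gave 10 and 12, where 0.706% and 0.562% were. With slide as a block in the fit of all arrays the calls were 0, 1 (Sema3b) and 0, where 0.0216%, 0.203% and 0.097% of all probes were called. With arrays weighted by their quality the calls were 0, 3 (Epha10, Sema3a and Sema3b) and 2 (Sema3a and Sema3b), where 0.0162%, 0.366% and 0.286% were. With the signal centred on each array's 75th percentile in place of quantile normalization they were 0, 1 and 1 (Sema3b in both), where 0.937%, 1.12% and 1.06% were. MS5 replicates 8 and 13 had the thalamus and hypothalamus list at 0.97 and 0.41, and the part of that list in these values was not tested.

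Other genes of the axon guidance pathways (68 genes, 113 probes of intracellular effectors, cytoskeletal regulators and further cue systems) showed 0 called probes in each contrast with all arrays. At an unadjusted limma p under 0.05 alone, 5 probes passed in MS2 against Con (1 higher and 4 lower), 2 in MS5 against Con (both lower) and 6 in MS5 against MS2 (2 higher and 4 lower). These were 4.42%, 1.77% and 5.31% of the 113 probes, where 4.17%, 3.90% and 3.97% of all probes passed. Without MS2 replicate 4 the numbers were 5 (4 higher and 1 lower), 8 (2 higher and 6 lower) and 10 (5 higher and 5 lower), or 4.42%, 7.08% and 8.85%, where 4.00%, 5.92% and 6.78% of all probes passed. Mical1, a redox enzyme that acts on actin downstream of semaphorins, differed from Con by -0.25 in MS5 (limma with Benjamini-Hochberg adjustment, adjusted p = 1.00). Rock1, a kinase of the RhoA pathway, differed from Con at 1 of its 3 probes by -0.20 in MS2 (adjusted p = 0.97) and by 0.02 in MS5. Mical1 and Rock1 were named after their values were seen. They had the smallest unadjusted limma p of this list against Con in MS5 and in MS2. The median over the 113 probes was 0.00 in all 3 contrasts.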

How the data were processed

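The 15 mRNA arrays were used, and the miR arrays were not used here. Per the labels and the study's methods, Agilent 1-colour arrays were read as spot intensity, which the authors adjusted for background by normexp, quantile normalized and deposited as log2 values for 55681 non-control probes. Rebuilding these log2 values from the deposited intensity files with an offset of 50 and the first spot of each probe gave a largest difference of 5e-09, and averaging spots moved 432 probes by more than 0.01. Groups were compared in 1 limma fit (lmFit, eBayes) of all 15 arrays (R 4.3.3, limma 3.58.1). Single probes were also compared by a two-sided exact permutation test over 252 assignments. Array weights, other background and scaling settings, a background filter, slide and left-out arrays were tried. On simulated data, 99.5% of probes changed by 1 log2 unit and 53.5% of those changed by 0.6, close to the 1.5-fold cut, were called. In the same simulation 108 unchanged probes were also called. It drew normal values around each probe's mean with its within-group SD, without slide effects or outlying arrays. It therefore does not show how the call rule behaves on arrays such as these. Probe positions are mm9 coordinates from the array files, which do not say whether a position is coding. The number of arrays limits the precision.

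The genes, pathway list and marker lists were chosen with earlier results of these data known. Named genes were Sema3a and Epha10, all called probes, the 4 genes with the smallest p in each direction of each contrast, and genes whose treated arrays lay wholly on one side of the controls. With all arrays, lists of hippocampal principal neuron, meningeal, oligodendrocyte, astrocyte, endothelial, microglial, interneuron and blood genes gave 0 called probes in each contrast. The shares of all probes called were 0.0233%, 0.228% and 0.129%. In MS5 against Con 15 of 17 principal neuron and all 10 meningeal probes were lower, and 14 of 15 oligodendrocyte probes were higher. Without MS2 replicate 4 and MS5 replicate 9 together, 1 interneuron probe was called in MS5 against Con, where 0.298% of all probes were. In MS5 against MS2, 2 interneuron probes and 1 meningeal probe were then called, where 0.221% were.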

Additional observations from a re-analysis of the deposited data

Results flagged for a closer look

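Within groups of 5 arrays, 7 of 60 named probe and group combinations (11.7%) had 1 array far from the other 4. For independent probes not picked by their values, chance flags about 1 in 20. Most of these probes were named from the same values and several flags share 1 array, so that rate does not apply here. MS2 replicate 4 accounted for 4: Epha10 at 10.83 (next 8.74), the Ntng1 probe A_52_P305658 at 8.77 (next 7.18), the Efnb2 probe A_52_P340073 at 10.77 (next 11.72) and Epha4 at 12.10 (next 13.12). MS2 replicate 5, the array with the low median signal, was far from its group at Sema3a (A_55_P2014249), high at 10.19 (next 9.01), and at Epha2, low at 7.29 (next 7.51). Con replicate 19 was high at the same Sema3a probe, at 9.80 (next 8.98).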

How the results depend on the processing

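The labels give neither the litter nor the round of the experiment, so no analysis paired or blocked by these was possible. Per the study's methods, treated pups shared a home cage with control littermates, and the experiment was repeated to gather animals. The arrays were therefore treated as independent without knowledge of litter. The number of called axon guidance probes was 0 in MS2 against Con, 2 in MS5 against Con and 1 in MS5 against MS2. Leaving out 1 array gave 0 to 1, 0 to 3 and 0 to 2. Within slide 2 the numbers were 7, 1 and 12, and within slide 1 the last 2 were 10 and 10. With slide as a block they were 1 in MS5 against Con and 0 in MS5 against MS2. Centring the scanner's processed signal on each array's 75th percentile gave 1 in MS5 against Con, while calls over all probes went from 13, 127 and 72 to 522, 623 and 592. Array weights gave 2 in MS5 against MS2. The pathway list gave 1 call, Ngef, in MS5 against MS2 within slide 1, and 0 elsewhere. Directions of the named genes held in all alternatives, with these exceptions. Sema3a at A_55_P2014249 in MS2 against Con turned to -0.06 with array weights, -0.06 within slide 1 and -0.15 without MS2 replicate 5 (leaving out 1 array gave -0.15 to 0.28), and at A_55_P2054013 to -0.01 without MS2 replicate 1 and -0.04 without replicate 5 (-0.04 to 0.12). Epha10 in MS5 against MS2 turned to 0.30 with array weights, 0.45 within slide 1, 0.37 without MS2 replicate 4, 0.04 without MS5 replicate 9, 0.03 without MS5 replicate 13 (-0.20 to 0.37) and 0.47 without MS2 replicate 4 and MS5 replicate 9 together, the last chosen after seeing the data. Sema3g in MS5 against MS2 turned to 0.12 within slide 1. The cause of these changes was not tested.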
